A study of Mus musculus with 13 samples.

Results

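The 53 genes described here copy DNA, divide the cell or set the pace of the cycle: 21 act in replication, 19 in G2 and mitosis, 10 are G1 cyclins, their kinases and E2F factors, and 3 are inhibitors of cyclin-dependent kinases. They were chosen by name, and a probe was taken for a member where the array's gene name was that symbol or an older synonym (Cdc2a for Cdk1). All 53 had a probe (84 probes), and 49 of the 20546 genes tested were members.

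RNA came from bone marrow-derived macrophages of C57BL/6 male mice aged 12 to 16 weeks, grown for 6 days in 30% L929 conditioned medium. KO cells came from animals that carry floxed Hdac3 (loxP sites around exons 4 to 7) together with Cre recombinase driven by the lysozyme M promoter, a promoter of the myeloid lineage. Control cells carry the same floxed Hdac3, and the labels give no Cre for them, so Cre and loss of HDAC3 cannot be told apart. Cells received IL-4 at 10 ng/ml, or 0.1% bovine serum albumin as vehicle, for 24 hours. The 13 one-colour Agilent arrays were KO IL-4 (n = 3), control IL-4 (n = 3), KO vehicle (n = 3) and control vehicle (n = 4). The labels do not say if each array stands for its own animal or culture, so p-values measure only how these samples scatter, and that scatter may be technical.

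HDAC3 is a histone deacetylase that works inside the NCoR and SMRT corepressor complexes. Entry into the cell cycle begins when growth factor signals, here the CSF-1 that L929 cells secrete, induce D-type cyclins. These activate CDK4 and CDK6, which release E2F factors from the retinoblastoma protein. E2F factors switch on genes for origin licensing, DNA polymerases and nucleotide supply. The later mitotic genes are controlled largely by the DREAM and B-MYB complexes, which act with NF-Y at CCAAT boxes and CHR elements. IL-4 has been reported to slow the growth of cultured bone marrow macrophages and to drive the growth of macrophages resident in tissues.

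Levels are log2 of the processed signal minus the 75th percentile of the same array, so a gene at 0 stands at that percentile. A gene was called changed at a limma adjusted p under 0.05 over all 20546 genes. The share of spots well above background ran from 56.2% on control vehicle array 4 to 83.2%, and the next lowest was 61.1% on KO IL-4 array 15. All 8 macrophage markers, Csf1r, Adgre1 and Cd68 among them, were well above background on every array. The summed level of those 8 markers, in multiples of the 75th percentile, was 438 to 477 in KO IL-4 arrays, 399 to 424 in control IL-4 arrays, 475 to 508 in KO vehicle and 499 to 556 in control vehicle arrays. For the 6 neutrophil markers that sum ran from 2.95 to 11.1 over all arrays, for 6 fibroblast markers from 4.35 to 6.35 and for 5 progenitor markers from 3.18 to 4.94. Of the progenitor markers only Myb was well above background on every array, while 5 of the 6 fibroblast markers were. The part of such cells in the results below was not tested, and in bulk RNA fewer cycling cells and less RNA per cell cannot be told apart.

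Hdac3 itself stood at -3.16, -3.35 and -4.02 in KO IL-4 arrays, against -1.89, -2.28 and -1.80 in control IL-4 arrays. In KO vehicle arrays it stood at -3.66, -3.12 and -3.46, against -1.70, -2.14, -2.01 and -2.18 in control vehicle arrays. No KO array reached a control array. The KO signal was 34.9% of control under IL-4 (limma adjusted p = 0.0039) and 37.7% of control in vehicle (adjusted p = 0.0029). Hdac3 was well above background on only 2 of 3 KO IL-4 arrays, so the first share is a rough one. Whether the probe lies in the deleted exons was not determined.

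Most members gave a clear signal: 43 of the 49 tested were well above background on all 13 arrays. Ccna2, which encodes cyclin A2, was so on 2 of 3 KO IL-4 arrays, 0 of 3 control IL-4 arrays, 3 of 3 KO vehicle arrays and 3 of 4 control vehicle arrays. The other 5 were Pole and Tk1 (11 arrays each) and Bub1, Cdk2 and Rfc3 (12 arrays each). The 4 members that could not be tested were dim. Cdk1, the main mitotic kinase, was well above background on 0 of 13 arrays with its brighter probe and on 1 with the other. Aurkb, the kinase of the chromosomal passenger complex, reached it on 4 arrays. E2f8, a repressor of the E2F family, and Gins2, a subunit of the replicative helicase, each reached it on 6.

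Promoter letters are shown for Cdc6, Cenpa and E2f2, the 3 members called higher after HDAC3 loss in vehicle, to set the E2F and NF-Y motifs beside their values. Each run holds the 250 bases before the RefSeq transcription start (GRCm38.p6, plus strand), 5′ to 3′, with motif matches in capitals. Cdc6 lies at chr11:98907901-98908150, Cenpa at chr5:30666636-30666885 and E2f2 at chr4:136172024-136172273, the first of 2 starts listed for E2f2. Ccnd1 and Ccnd2 are named only.
Cdc6: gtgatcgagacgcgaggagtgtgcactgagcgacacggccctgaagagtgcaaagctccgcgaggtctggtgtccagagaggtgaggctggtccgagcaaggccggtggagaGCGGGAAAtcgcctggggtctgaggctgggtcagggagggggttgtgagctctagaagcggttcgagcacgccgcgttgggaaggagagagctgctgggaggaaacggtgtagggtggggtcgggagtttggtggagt
Cenpa: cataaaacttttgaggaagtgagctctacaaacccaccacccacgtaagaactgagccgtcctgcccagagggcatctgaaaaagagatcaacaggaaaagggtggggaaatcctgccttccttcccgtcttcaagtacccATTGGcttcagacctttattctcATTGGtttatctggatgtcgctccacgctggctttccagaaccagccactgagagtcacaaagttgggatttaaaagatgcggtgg
E2f2: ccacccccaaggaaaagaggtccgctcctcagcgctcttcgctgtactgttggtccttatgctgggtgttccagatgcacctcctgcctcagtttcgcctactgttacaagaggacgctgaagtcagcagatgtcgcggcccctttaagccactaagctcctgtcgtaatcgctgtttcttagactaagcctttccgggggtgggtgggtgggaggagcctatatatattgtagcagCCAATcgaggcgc

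The motifs searched on both strands were TTTGGCGC and TTTCCCGC (E2F), TTTGAA (CHR), CCAAT (NF-Y) and the STAT6 site, TTC and GAA with 4 bases between them (STAT6 is the factor that IL-4 activates), and no 2 of the matches shown overlap. Cdc6 held 1 match, to the second E2F motif with its first base at -138, where -1 is the last base before the start. Cenpa held CCAAT at -109 and -86 and E2f2 held it at -13, in each case counted to the first base of the match. Promoters were listed for 42 of 53 members. CCAAT was found in 13 of 15 mitosis promoters and 12 of 17 replication promoters, against 34.5% of the promoters of 27025 genes. CHR was found in 6 of 15 mitosis promoters and 1 of 17 replication promoters, against 16.3% of all. The first E2F motif was found in 3 of 17 replication promoters (Mcm5, Mcm6 and Pola1) and 0 of 15 mitosis promoters, against 0.437% of all. The second was found in 2 of 17 replication promoters (Cdc6 and Mcm7) and 0 of 15 mitosis promoters, against 0.929% of all. The STAT6 motif was found in 2 of 42 member promoters (Rfc3 and Top2a), against 5.86% of all. These matches are descriptions of letters, not of binding.

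The first question was what the loss of HDAC3 did to these genes. Ccnd1, which encodes cyclin D1, fell under both treatments, and Cdc6, the factor that loads the replicative helicase at origins, rose under both. Cenpa and E2f2 rose in vehicle, and Ccnd2, which encodes cyclin D2, fell under IL-4. The other 44 tested members passed the test in neither treatment, among them all 6 tested members of the MCM2 to MCM7 helicase ring, all 6 clamp and polymerase genes and all tested cyclins and kinases of G2 and mitosis. Under IL-4, 1 member rose and 2 fell of 49 (6.12%), against 3.71% of all genes tested (2.07% higher and 1.64% lower). In vehicle 3 rose and 1 fell (8.16%), against 4.77% of all genes (2.47% higher and 2.3% lower). Counts this small, beside those background shares, do not set the members apart from other genes. The 2 HDAC3 comparisons share no array.

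Replication and mitosis genes as groups had small medians when the slides were pooled. That of replication genes under IL-4 lay furthest from the median of all genes. The median log2 fold change of 20 replication genes was -0.14 under IL-4 and 0.08 in vehicle. That of 17 mitosis genes was -0.07 under IL-4 and 0.05 in vehicle. Over all genes it was -0.02 under IL-4 and 0.02 in vehicle. Under IL-4 the unadjusted limma p was under 0.05 for 6 of 20 replication genes (3 higher, 3 lower) and 2 of 17 mitosis genes, against 3077 of all 20546 genes. In vehicle this held for 4 of 20 and 2 of 17, against 2817 of all genes. The slides differed under IL-4: the replication median was -0.25 on slide 1 (6 of 20 positive) and 0.22 on slide 2 (12 of 20), and that of the 10 origin licensing and helicase genes was -0.33 and 0.48. In vehicle the replication median was -0.06, 0.12 and 0.03 on slides 1, 2 and 3. Positive changes were found for 8 of 20 replication and 7 of 17 mitosis genes under IL-4, and for 11 of 20 and 11 of 17 in vehicle. Of all 20546 genes, 9606 were positive under IL-4 and 11342 in vehicle, so the background leaned the same ways. KO and control arrays did not overlap for 11 members under IL-4 (5 higher, 6 lower), against 17.9% of all genes (9.15% higher, 8.74% lower). In vehicle they did not overlap for 12 members (7 higher, 5 lower), against 17% of all genes (9.03% higher, 7.93% lower). The members that did so in the same direction under both treatments were Cdc6, E2f2 and Mcm4, higher, and Ccnd1, Gins1 and Mad2l1, lower. Mcm4, Gins1 and Mad2l1 passed the limma test in neither treatment. In vehicle the highest KO value of Gins1 was -0.4306 and the lowest control value -0.4297. The share of all genes that did so under both treatments was not taken, so this list has no background to be judged against.

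**Figure D1:**
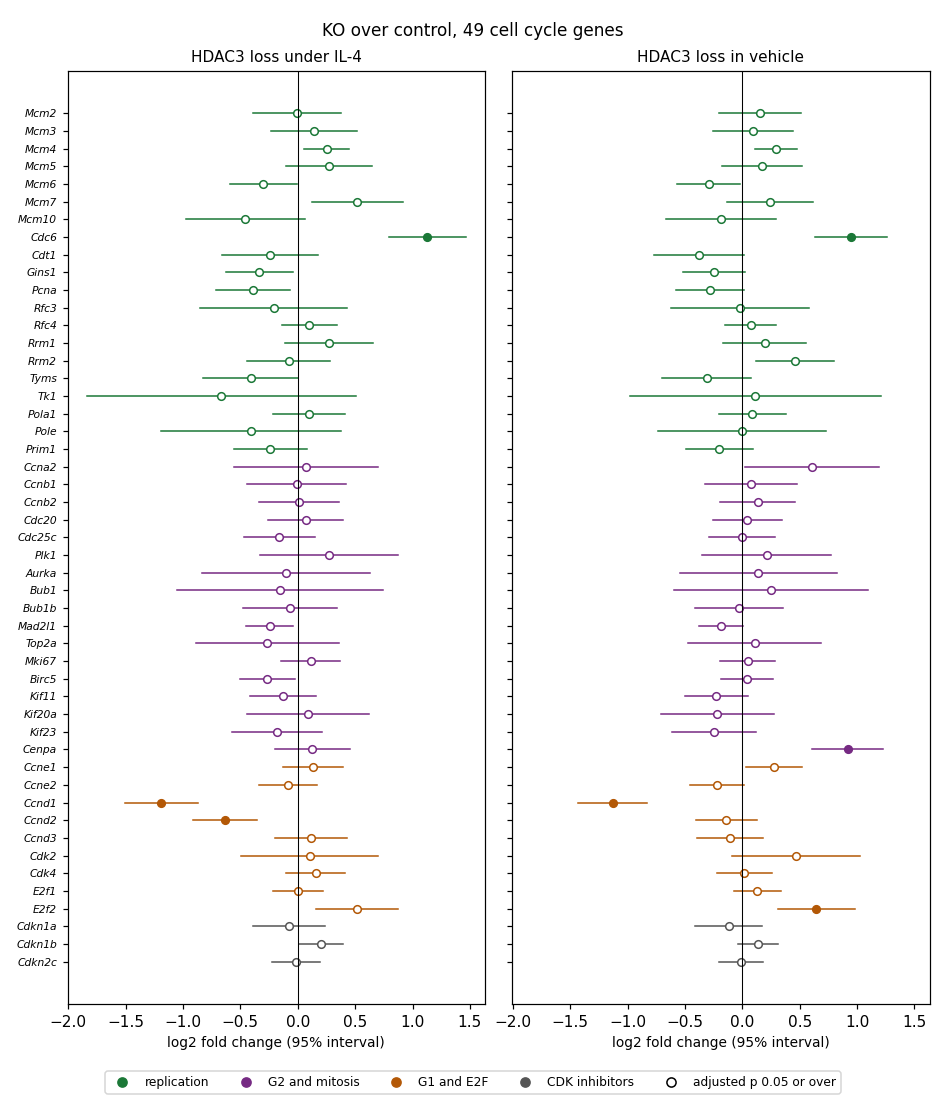
Log2 fold change of KO over control (x axis) with its 95% interval for 49 cell cycle genes (y axis), under IL-4 on the left and in vehicle on the right; filled points passed the limma test. Ccnd1 lies at -1.19 and -1.13 and Cdc6 at 1.13 and 0.95, while most other intervals cross 0; Ccna2 was not well above background on any control IL-4 array.

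Ccnd1, the D-type cyclin that couples growth factor signals to CDK4, carried the largest change among the members. It read 2.59, 2.67 and 3.11 in KO IL-4 arrays, against 3.96, 4.06 and 3.92 in control IL-4 arrays. KO vehicle arrays gave 3.14, 3.17 and 3.52, against 4.33, 4.37, 4.45 and 4.48 in control vehicle arrays. Every KO array lay below every control array, whichever treatment either had received. Means were 2.79 ± 0.28 in KO IL-4 and 3.98 ± 0.07 in control IL-4 (SD, n = 3 each), and 3.28 ± 0.21 in KO vehicle (n = 3) and 4.41 ± 0.07 in control vehicle (n = 4). Signal in KO cells was 43.8% of control under IL-4 (log2 fold change -1.19, SE 0.15, limma adjusted p = 0.00101) and 45.7% of control in vehicle (-1.13, SE 0.14, adjusted p = 0.000601). On single slides the difference was -1.36 and -1.39 under IL-4, and -1.19, -1.20 and -0.92 in vehicle. Under IL-4 the adjusted p was 0.0519 when only the KO IL-4 and control IL-4 arrays were fitted. The probe maps to chr7:152116173-152116232 (mm9). In the RefSeq annotation Ccnd1 overlaps LTO1, which differed by -0.01 in vehicle (adjusted p = 0.998) and 0.18 under IL-4 (adjusted p = 0.541).

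Ccnd2, a second D-type cyclin, read -1.12, -0.81 and -1.17 in KO IL-4 arrays, against -0.22, -0.49 and -0.49 in control IL-4 arrays, and the 2 groups did not overlap. In KO vehicle arrays it read -0.83, -1.02 and -0.80, against -0.56, -0.83, -0.79 and -0.79 in control vehicle arrays, which overlap. It fell to 64.5% of control under IL-4 (log2 fold change -0.63, SE 0.13, limma adjusted p = 0.0177) and differed by -0.14 in vehicle (adjusted p = 0.80). The call rests on 1 of 3 probes, at chr6:127098696-127098755 (mm9). The other probes differed by 0.13 and -0.42 under IL-4, neither past the test, and the mean over probes had an adjusted p of 0.729. The probe with -0.42 was not well above background on control IL-4 array 9 or on KO IL-4 arrays 14 and 15. The probe with -0.42 was lower in vehicle too, without overlap but not called. It read -2.96, -3.12 and -3.15 in KO vehicle arrays, against -2.67, -1.94, -2.07 and -2.35 in control vehicle arrays. The probe with 0.13 overlapped in vehicle when the slides were pooled. On slides 1, 2 and 3 its KO vehicle values were -3.03, -1.89 and -1.17. The control vehicle values there were -2.83, -1.44 and -1.05, higher on each slide. The called probe differed by -0.26, -0.19 and -0.01 on those slides in vehicle. Under IL-4 the probe with 0.13 was higher in KO on slide 1 and lower on slide 2. The probes thus do not settle whether the fall is limited to IL-4. Without control IL-4 array 9, KO IL-4 array 13 or KO IL-4 array 15 the adjusted p was 0.0644, 0.0577 and 0.0707, and with slide as a block it was 0.0585. Ccnd3, the third D-type cyclin, differed by 0.11 under IL-4 and -0.11 in vehicle, and Cdk4, the partner of the D-type cyclins, by 0.16 and 0.02. Cyclin E genes act with CDK2 at the start of S phase: Ccne1 differed by 0.13 under IL-4 and 0.28 in vehicle (adjusted p = 0.276), and Ccne2 by -0.08 and -0.22 (adjusted p = 0.422).

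E2f2, an activating E2F factor, read -1.19, -0.91 and -1.16 in KO IL-4 arrays, against -1.59, -1.65 and -1.58 in control IL-4 arrays. KO vehicle arrays gave -0.35, -0.78 and -0.85, against -0.98, -1.40, -1.30 and -1.55 in control vehicle arrays. KO arrays lay above control arrays of the same treatment in both cases. The rise was 1.56-fold in vehicle (95% interval 1.24 to 1.97, limma adjusted p = 0.0337), and the log2 difference under IL-4 was 0.52 (adjusted p = 0.137). The vehicle call was lost in 12 of 25 alternative settings, where leaving out KO vehicle array 5 gave an adjusted p of 0.173 and blocking on the slides gave 0.0778. E2f1, the related activator, differed by 0.0038 under IL-4 and 0.13 in vehicle (adjusted p = 0.991 and 0.698).

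**Figure D2:**
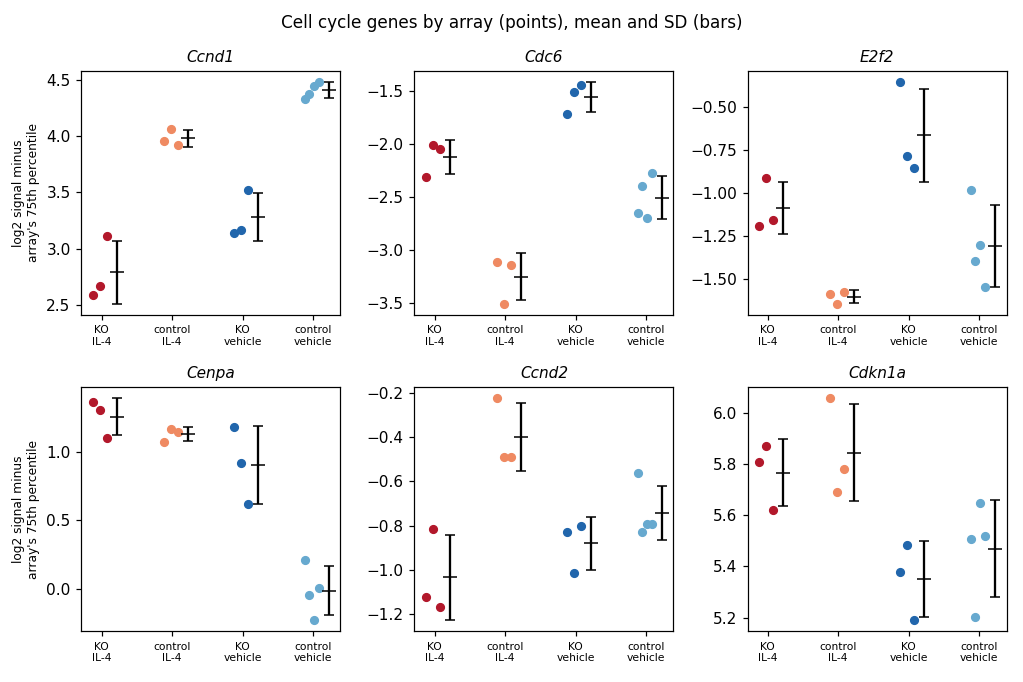
Level of 5 called genes and of Cdkn1a (y axis, log2 signal minus the array's 75th percentile) by group (x axis); points are arrays and bars the mean and SD. Ccnd1 in KO arrays lies at 3.52 or below and in control arrays at 3.92 or above, and Cenpa is low in the 4 control vehicle arrays alone among these 13.

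Among replication genes Cdc6 stood apart. It read -2.31, -2.01 and -2.05 in KO IL-4 arrays, against -3.12, -3.51 and -3.14 in control IL-4 arrays. KO vehicle arrays gave -1.72, -1.51 and -1.45, against -2.65, -2.40, -2.70 and -2.28 in control vehicle arrays. KO arrays lay above control arrays of the same treatment without overlap. Means were -2.13 ± 0.16 in KO IL-4 and -3.26 ± 0.22 in control IL-4, and -1.56 ± 0.14 in KO vehicle and -2.51 ± 0.20 in control vehicle. The rise was 2.19-fold under IL-4 (95% interval 1.73 to 2.76, limma adjusted p = 0.00196) and 1.93-fold in vehicle (1.55 to 2.40, adjusted p = 0.00255). Under IL-4 the adjusted p was 0.0552 when only those 2 groups were fitted. On single slides the log2 difference was 0.81 and 1.5 under IL-4, and 0.93, 0.89 and 1.25 in vehicle. The probe lies at chr11:98785169-98785228 (mm9). The second Cdc6 probe gave 0.59 under IL-4 (adjusted p = 0.161 over all probes) and 0.75 in vehicle (adjusted p = 0.0406).

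The partners of Cdc6 at origins did not pass the test. Cdt1, which loads the helicase together with Cdc6, differed by -0.24 under IL-4 (adjusted p = 0.634) and -0.38 in vehicle (adjusted p = 0.389). The helicase ring genes Mcm2 to Mcm7 ranged from -0.30 to 0.52 under IL-4 and from -0.29 to 0.29 in vehicle. Mcm4 differed by 0.25 (adjusted p = 0.19) and came nearest in vehicle, at 0.29 (adjusted p = 0.0812). It was called in vehicle in 4 alternative settings, quantile normalization and array weights among them. Mcm7 came nearest under IL-4, at 0.52 (adjusted p = 0.183), and passed there without KO IL-4 array 13 (0.71, adjusted p = 0.0439). Mcm6 differed by -0.30 and -0.29 (adjusted p = 0.319 and 0.311), the opposite sign to Mcm4 within the same ring. Gins1, a subunit of the GINS part of the helicase, differed by -0.34 and -0.25, and Mcm10, which helps to fire origins, by -0.46 and -0.19.

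Of the clamp and polymerase genes, Pole, the catalytic subunit of polymerase epsilon, had the largest difference under IL-4. It read -3.08, -3.29 and -3.75 in KO IL-4 arrays, against -2.83, -3.79 and -2.28 in control IL-4 arrays, which overlap (log2 fold change -0.41, limma adjusted p = 0.67). In vehicle it was Pcna, the sliding clamp, with 4.46, 4.55 and 4.14 in KO arrays, against 4.78, 4.41, 4.77 and 4.71 in control arrays (-0.28, adjusted p = 0.40). Pcna differed by -0.39 under IL-4 (adjusted p = 0.214). Pcna passed the test under IL-4 in 2 of the alternative settings, array weights and normexp with quantile normalization. The loader subunits Rfc3 and Rfc4, the polymerase alpha gene Pola1 and the primase gene Prim1 lay between -0.24 and 0.10 in the 2 comparisons.

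Nucleotide supply genes showed no call. Tk1, thymidine kinase, read -3.34, -2.84 and -3.38 in KO IL-4 arrays, against -1.98, -2.66 and -2.91 in control IL-4 arrays (log2 fold change -0.67, limma adjusted p = 0.638). The small subunit of ribonucleotide reductase, Rrm2, read 1.31, 1.22 and 1.22 in KO vehicle arrays, against 0.98, 0.67, 0.92 and 0.60 in control vehicle arrays. Those vehicle groups did not overlap, but the difference of 0.46 missed the threshold (adjusted p = 0.153). Under IL-4 Rrm2 differed by -0.08. Tyms, thymidylate synthase, differed by -0.41 under IL-4 and -0.31 in vehicle, and Rrm1, the large subunit of the reductase, by 0.27 and 0.19.

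Cenpa, the histone H3 variant that marks centromeres, was the only mitosis gene called after HDAC3 loss, in vehicle. It read 1.18, 0.91 and 0.62 in KO vehicle arrays, against 0.21, -0.05, -0.23 and 0.01 in control vehicle arrays. Every KO vehicle array lay above every control vehicle array. The rise was 1.89-fold (95% interval 1.53 to 2.34, limma adjusted p = 0.00266), and on single slides the log2 difference was 0.97, 0.96 and 0.84. Under IL-4 it read 1.36, 1.30 and 1.1 in KO arrays, against 1.07, 1.17 and 1.14 in control arrays, which overlap (0.13, adjusted p = 0.765). Its probe lies at chr5:30976729-30976788 (mm9).

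The rest of the mitotic programme was scattered around 0. Among cyclins and kinases, Plk1, polo-like kinase, read -1.58, -1.23 and -1.21 in KO IL-4 arrays, against -2.40, -1.14 and -1.29 in control IL-4 arrays (log2 fold change 0.27, limma adjusted p = 0.725). Ccna2 read -3.31, -3.52 and -3.34 in KO vehicle arrays, against -3.99, -4.34, -3.52 and -4.13 in control vehicle arrays (0.61, adjusted p = 0.339). The lowest KO vehicle value of Ccna2 and the highest control vehicle value nearly met. Ccna2 was kept in the test only through its KO vehicle arrays, so the filter favoured high values there. The mitotic cyclin genes Ccnb1 and Ccnb2 differed by -0.01 and 0.01 under IL-4 and by 0.08 and 0.13 in vehicle. The kinase gene Aurka ranged from -0.64 to 0.57 within control IL-4 arrays and from -0.79 to 0.44 within control vehicle arrays. Its high arrays in both groups were on slide 1.

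In the spindle checkpoint, Mad2l1 read 0.85, 0.77 and 0.82 in KO IL-4 arrays, against 1.20, 1.02 and 0.95 in control IL-4 arrays (log2 fold change -0.24, limma adjusted p = 0.226). In vehicle it differed by -0.19 (adjusted p = 0.373). The kinase Bub1 read -2.30, -2.36 and -1.97 in KO vehicle arrays, against -1.96, -2.29, -2.42 and -3.17 in control vehicle arrays (0.25, adjusted p = 0.946). Birc5, survivin of the chromosomal passenger complex, read 2.04, 1.79 and 1.90 in KO IL-4 arrays, against 2.35, 2.04 and 2.15 in control IL-4 arrays (-0.26, adjusted p = 0.274). Mki67, the proliferation marker Ki-67, differed by 0.11 under IL-4 and 0.05 in vehicle (adjusted p = 0.73 and 0.981). KO IL-4 array 14 was lowest of all 13 arrays for Bub1 (-3.59), Bub1b (-1.30), Top2a (-3.16) and Cdc25c (-0.12).

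Kif11, the kinesin that separates spindle poles, depended on the probe. The brightest of its 3 probes differed by -0.13 under IL-4 and -0.23 in vehicle (limma adjusted p = 0.729 and 0.513). A second probe, at chr19:37495755-37495814 (mm9), read -1.94, -2.31 and -2.07 in KO IL-4 arrays, against -1.52, -1.32 and -1.40 in control IL-4 arrays. In KO vehicle arrays that probe read -1.87, -1.65 and -1.97, against -1.07, -0.94, -0.90 and -1.01 in control vehicle arrays, with no overlap. Its differences were -0.69 (adjusted p over all probes = 0.00931) and -0.85 (adjusted p = 0.00129). The third probe, the dimmest, differed by -0.23 and -0.04. Kif11 was singled out after its probe values were seen. Over 21 further probes of 17 members, only the second probes of Kif11, under both treatments, and of Cdc6, in vehicle, were called for HDAC3 loss. Over all genes tested the share called was 3.71% under IL-4 and 4.77% in vehicle. The share over all kept probes was not taken.

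The inhibitors of cyclin-dependent kinases differed little by genotype. Cdkn1b, which encodes p27, read 5.04, 4.96 and 4.96 in KO IL-4 arrays, against 4.78, 4.85 and 4.72 in control IL-4 arrays (log2 fold change 0.20, limma adjusted p = 0.292). In KO vehicle arrays it read 5.18, 4.99 and 5.09, against 4.95, 4.95, 4.89 and 5.01 in control vehicle arrays (0.14, adjusted p = 0.565). Cdkn1a, which encodes p21, differed by -0.08 and -0.12, and Cdkn2c, which encodes p18, by -0.02 and -0.01.

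The second question was what IL-4 did to the same genes. In control cells Cenpa rose and Cdc6 fell, which makes 2 of 49 members (4.08%), against 5.71% of all genes (2.81% higher, 2.9% lower). In KO cells 0 of 49 members passed the limma test, against 2.22% of all genes (1.19% higher, 1.03% lower), and 6 members had an unadjusted p under 0.05, against 2547 of all 20546 genes. The groups did not overlap for 8 members in KO cells (3 higher, 5 lower), against 18.3% of all genes (9.14% higher, 9.2% lower). In control cells this held for 12 members (6 higher, 6 lower), against 16.8% of all genes (8.9% higher, 7.91% lower). The HDAC3 comparison in vehicle and the IL-4 comparison in control cells share the 4 control vehicle arrays.

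The group medians lay near 0. For replication genes the median log2 fold change of IL-4 over vehicle was -0.06 in KO and 0.02 in control cells. For mitosis genes it was -0.05 in KO and 0.03 in control cells, and over all genes -0.04 and 0.01. Counts by sign were 9 of 20 replication and 7 of 17 mitosis genes positive in KO cells, and 10 of 20 and 9 of 17 in control cells. Of all 20546 genes, 8756 were positive in KO cells and 10655 in control cells.

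**Figure D3:**
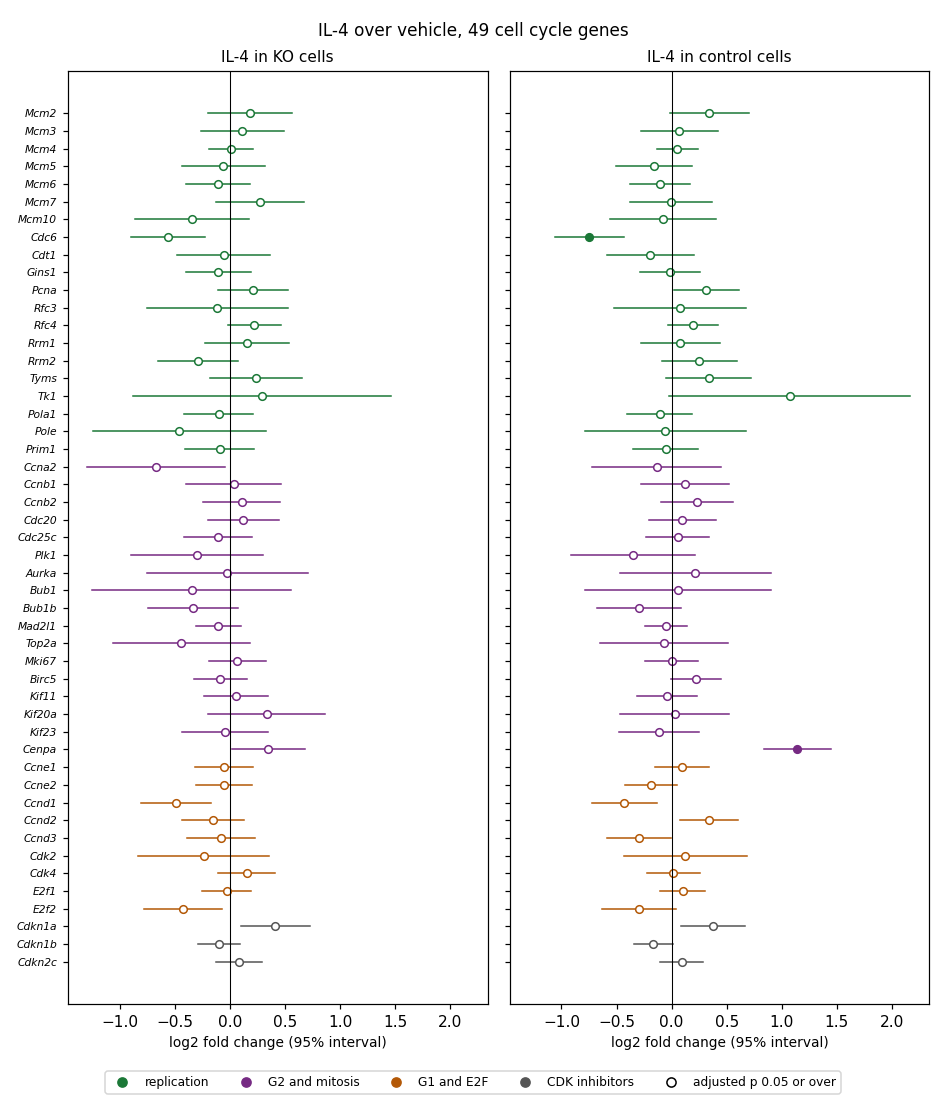
Log2 fold change of IL-4 over vehicle (x axis) with its 95% interval for 49 cell cycle genes (y axis), in KO cells on the left and control cells on the right; filled points passed the limma test. In control cells Cenpa lies at 1.14 and Cdc6 at -0.75, and in KO cells no point is filled; Ccna2 was not well above background on any control IL-4 array.

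Cenpa read 1.07, 1.17 and 1.14 in control IL-4 arrays, against 0.21, -0.05, -0.23 and 0.01 in control vehicle arrays, and rose 2.21-fold (95% interval 1.78 to 2.73, limma adjusted p = 0.000445). In KO cells it read 1.36, 1.30 and 1.1 with IL-4, against 1.18, 0.91 and 0.62 with vehicle (log2 fold change 0.35, adjusted p = 0.363). Its control vehicle arrays were thus the low ones, and the other 3 groups lay between 0.62 and 1.36. On single slides the log2 difference in control cells was 0.86, 1.21 and 1.14. The difference between the 2 IL-4 effects, KO minus control, was -0.79 (95% interval -1.24 to -0.34), with an unadjusted p of 0.00252 and an adjusted p of 0.793.

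Cdc6 fell to 59.6% of vehicle in control cells, with -3.12, -3.51 and -3.14 under IL-4, against -2.65, -2.40, -2.70 and -2.28 with vehicle (log2 fold change -0.75, limma adjusted p = 0.00867). In KO cells it read -2.31, -2.01 and -2.05 with IL-4, against -1.72, -1.51 and -1.45 with vehicle, also without overlap (-0.56, adjusted p = 0.101). The call in control cells was lost under median scaling (adjusted p = 0.0543) and under normexp with quantile normalization (0.0763), and its second probe differed by -0.37 (adjusted p over all probes = 0.393). IL-4 and HDAC3 loss thus had opposite signs for Cdc6, and their interaction was 0.18 (95% interval -0.28 to 0.64). The order of the groups was control IL-4, control vehicle, KO IL-4 and KO vehicle, low to high, and of these neighbours only control vehicle and KO IL-4 overlapped in range.

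Ccnd1 differed by -0.49 in KO cells (limma adjusted p = 0.137) and -0.43 in control cells (adjusted p = 0.112), and IL-4 and vehicle arrays did not overlap in either genotype. These values passed the test in 2 and 4 of the alternative settings, a variance model with trend and robust estimation and leaving out KO IL-4 array 15 among them in both cases. Ccnd2 read -0.22, -0.49 and -0.49 in control IL-4 arrays, above all 4 control vehicle arrays (0.34, adjusted p = 0.163), and differed by -0.15 in KO cells (adjusted p = 0.687). The 2 other Ccnd2 probes differed by -0.46 and -0.94 in control cells, opposite in sign. The probe with -0.94 read -4.65 on control IL-4 array 9, where it was not well above background, and -2.58 and -2.37 on the others. The probe with -0.46 had its highest vehicle value, -1.05, on slide 3, which held no control IL-4 array. E2f2 differed by -0.43 in KO cells and -0.30 in control cells (adjusted p = 0.286 and 0.424).

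Cdkn1a, which IL-4 is reported to induce in macrophages, read 5.81, 5.87 and 5.62 in KO IL-4 arrays, against 5.38, 5.48 and 5.19 in KO vehicle arrays. In control cells it read 6.06, 5.69 and 5.78 with IL-4, against 5.50, 5.20, 5.65 and 5.52 with vehicle. IL-4 arrays lay above vehicle arrays in both genotypes, but the differences of 0.41 and 0.38 missed the threshold (limma adjusted p = 0.216 and 0.169). In control cells the value passed the test with trend and robust estimation of the variance (adjusted p = 0.0424).

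Replication genes other than Cdc6 gave no call with IL-4. Tk1 had the largest difference, with -1.98, -2.66 and -2.91 in control IL-4 arrays, against -3.62, -3.10, -2.48 and -5.15 in control vehicle arrays (log2 fold change 1.07, SE 0.50, limma adjusted p = 0.355). The lowest of these, control vehicle array 4, was also the array on which Tk1 was not well above background. In KO cells Tk1 read -3.34, -2.84 and -3.38 with IL-4, against -3.08, -3.55 and -3.79 with vehicle (0.29, adjusted p = 0.874). Pcna read 5.13, 4.80 and 5.02 in control IL-4 arrays, above all control vehicle arrays (0.32, adjusted p = 0.302), and differed by 0.21 in KO cells. Pole read -3.08, -3.29 and -3.75 in KO IL-4 arrays, against -2.74, -2.92 and -3.09 in KO vehicle arrays (-0.46, adjusted p = 0.664).

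Mitosis genes other than Cenpa gave no call with IL-4 either. Ccna2 read -3.83, -3.63 and -4.73 in KO IL-4 arrays, against -3.31, -3.52 and -3.34 in KO vehicle arrays, which is lower without overlap (log2 fold change -0.67, limma adjusted p = 0.357). Since the filter kept Ccna2 only through KO vehicle, where its mean was highest, that lack of overlap was favoured by the filter and carries little weight. In control IL-4 arrays Ccna2 was never well above background, so only a bound between group means was taken, 1.04-fold lower than control vehicle arrays. That bound leaves out scatter. Control IL-4 arrays read -3.75, -4.21 and -4.43 and overlapped control vehicle arrays, so no fall is shown (limma adjusted p = 0.905). Plk1 differed by -0.35 in control cells, where control IL-4 array 9 read -2.40 and the others -1.14 and -1.29 (adjusted p = 0.64). Bub1b, the checkpoint kinase BubR1, read -0.77, -0.58 and -0.82 in control IL-4 arrays, below -0.38, -0.44, -0.52 and -0.36 in control vehicle arrays (-0.30, adjusted p = 0.511). In KO cells the largest differences of their subgroups were Bub1 at -0.35 (adjusted p = 0.786) and Top2a, topoisomerase II alpha, at -0.44 (adjusted p = 0.591), and both rested on the low value of KO IL-4 array 14.

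**Figure D4:**
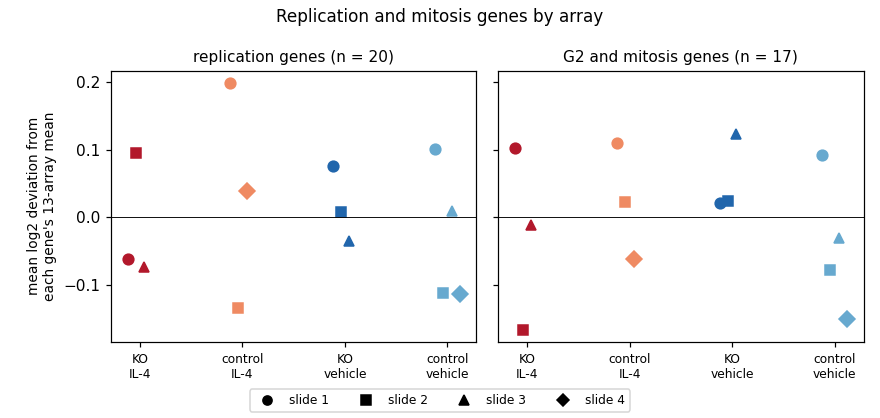
Mean log2 deviation of 20 replication genes and 17 G2 and mitosis genes from their 13-array means (y axis) by group (x axis); each point is an array and its shape the slide. All groups overlap in both panels, and the range over all arrays is -0.13 to 0.20 for replication and -0.17 to 0.12 for mitosis genes.

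Averaged per array, replication genes deviated by -0.01 ± 0.09 in KO IL-4 arrays, 0.03 ± 0.17 in control IL-4 arrays, 0.02 ± 0.06 in KO vehicle arrays and -0.03 ± 0.10 in control vehicle arrays. Mitosis genes deviated by -0.02 ± 0.13 in KO IL-4 arrays, 0.02 ± 0.09 in control IL-4 arrays, 0.06 ± 0.06 in KO vehicle arrays and -0.04 ± 0.10 in control vehicle arrays. For these 2 sets every group overlaps every other, as the plot of means by array shows. The 9 G1 genes, Ccnd1 and Ccnd2 among them, deviated by -0.169, -0.0586 and -0.0914 in KO IL-4 arrays, below every array of the other groups, of which the lowest was -0.0556. That mean includes the falls of Ccnd1 and Ccnd2 already called, so it is no separate result. The median log2 fold change of the 9 genes after HDAC3 loss under IL-4 was 0.10, with 6 positive, against 9606 of all 20546 genes. For IL-4 in KO cells it was -0.08, with 1 positive, against 8756 of all 20546 genes. Each group held the same place on every slide, so an effect of that place and of the group cannot be told apart.

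No member passed the test of the interaction, the IL-4 effect in KO cells minus that in control cells, against 0.00487% of all genes (1 gene). Unadjusted p was under 0.05 for 3 members by limma, against 801 of all 20546 genes (469 lower), all 3 negative: Cenpa at -0.79, Rrm2 at -0.54 and Ccnd2 at -0.50, and the last 2 had an adjusted p of 0.999. So no difference between the genotypes in the response of these genes to IL-4 was detectable with these arrays.

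Genes of the same pathways outside the 53 gave a further view. Of 49 other replication genes tested, 0 rose and 1 fell after HDAC3 loss under IL-4, and 2 rose and 1 fell in vehicle. The shares over all genes were 2.07% higher and 1.64% lower under IL-4 and 2.47% and 2.3% in vehicle. The gene that fell was in both cases Dck, deoxycytidine kinase of nucleotide salvage: to 46.8% of control under IL-4 (limma adjusted p = 0.000552) and 51.0% of control in vehicle (adjusted p = 0.000508). Its means were 3.23 ± 0.09 in KO IL-4 arrays, 4.33 ± 0.16 in control IL-4 arrays, 3.26 ± 0.20 in KO vehicle and 4.23 ± 0.05 in control vehicle arrays. Chaf1a, a subunit of the chromatin assembly factor that follows the fork, rose by 0.90 in vehicle (adjusted p = 0.0177), and Rfc5, a clamp loader subunit, by 0.31 (adjusted p = 0.0382).

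Of 53 other mitosis genes tested, Cks2, a small subunit that binds cyclin-dependent kinases, rose after HDAC3 loss under IL-4 (log2 fold change 0.64, limma adjusted p = 0.0168). In vehicle, Incenp, the scaffold of the chromosomal passenger complex, rose by 0.54 (adjusted p = 0.00774) and Cdc25b, a phosphatase that activates mitotic kinase, by 0.37 (adjusted p = 0.0279). None of the 53 fell in either comparison, beside shares of 1.64% and 2.3% lower over all genes, so little can be read from it. Of 26 other G1 regulators and inhibitors, 3 rose under IL-4 (2.07% of all genes): Cdk6 by 0.66, Cdkn2d, which encodes p19, by 0.46 and Fbxw7, a ubiquitin ligase subunit that targets cyclin E, by 0.46. In vehicle (2.47% of all genes) the 3 that rose were Cdkn2d by 0.40, Pkmyt1, a kinase that inhibits mitotic entry, by 0.51, and Tfdp2, a partner of E2F factors, by 0.48. Cdk6 is the other partner of D-type cyclins.

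With IL-4 in KO cells, 1 gene of these 3 lists was called: Mxd4, an antagonist in the MYC network, which rose by 0.86 (limma adjusted p = 0.0333), against 1.19% of all genes higher. In control cells, where 2.81% of all genes were higher and 2.9% lower, Dut, which clears dUTP, rose by 1.12 (adjusted p = 0.00381), Rfc5 by 0.57, Pkmyt1 by 0.92, Incenp by 0.44 and Cdc25b by 0.34. Cdk6 fell to 61.1% of vehicle (adjusted p = 0.00181) and Lin9, a core subunit of the DREAM complex, to 80.0% (adjusted p = 0.0403). Myc, which drives growth and cell cycle entry, was called in none of the comparisons, with differences from -0.07 to 0.25. Csf1r, the receptor for CSF-1, read 5.80 ± 0.14 in KO IL-4 and 5.42 ± 0.06 in control IL-4 arrays (0.38, adjusted p = 0.0692). It rose by 0.42 in KO vehicle, with 5.62 ± 0.05, against 5.20 ± 0.10 in control vehicle arrays (adjusted p = 0.0261).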

How the data were processed

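RNA of 13 mouse macrophage samples was amplified with a NuGEN kit, labelled with Cy3 and measured on one-colour Agilent arrays, per the labels. The deposited scanner files hold spot intensity on a linear scale, extracted with Agilent Feature Extraction 10.5.1.1 per the file headers (9.53 and limma per the submitters' processing notes), with probe positions in mm9. A deposited table of the authors' intensity values (39280 probes) served as an alternative; the sources used here do not give its steps.

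Controls and spots with an outlier flag were dropped (101 of 41174 probes then lacked a value), and saturated spots were absent. Each array's 75th percentile was subtracted from log2 gProcessedSignal. A probe was kept where at least 1 group had it well above background on all its arrays (29059 probes), and the brightest stood for its gene (20546 genes), named through RefSeq accessions (GRCm38.p6 table) or else the file's name. A group with no array well above background gives only a bound, taken per array as its own value or, if higher, the dimmest signal counted as well above background. Groups were fitted together with limma 3.58.1 in R 4.3.3 (lmFit, eBayes, two-sided, Benjamini-Hochberg over all genes); the fit was tested on simulated data. Intervals are 95% and unadjusted. The number of arrays limits the precision. Within groups arrays correlated at 0.98 to 0.993 across genes and none were identical. Adjusted p over all probes comes from a fit of every kept probe. Alternatives covered normalization, filter, probe rule, variance model, slide, samples and arrays left out.

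The members and lists were chosen with earlier results of these data known. Values in every array are given for called members and for the member with the largest change in each subgroup, and up to 3 called genes per direction of each wider list are named by smallest adjusted p, besides Hdac3, Csf1r and Myc. Promoter sequences are from RefSeq.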

Additional observations from a re-analysis of the deposited data

Results flagged for a closer look

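Among the 49 members checked in the 4 control vehicle arrays, 3 had an array far from the others by Dixon's test; chance gives about 1 in 20 groups. Mcm10 was high on control vehicle array 1 (-1.883), against -2.40, -2.32 and -2.38 on the other arrays. Ccnb1 was high on control vehicle array 3 (-1.362), against -1.92, -2.00 and -1.96. Ccnd2 was high on control vehicle array 1 (-0.562), against -0.83, -0.79 and -0.79.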

How the results depend on the processing

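Over 25 alternative settings (normexp was run together with quantile normalization, and trend together with robust variance), the calls for HDAC3 loss in vehicle of Ccnd1 (limma adjusted p up to 0.00595), Cdc6 (0.0194) and Cenpa (0.0245) and for IL-4 in control cells of Cenpa (0.00361) held in all, E2f2 in 13 and Ccnd2 under IL-4 in 17. Ccnd1 and Cdc6 under IL-4 were lost only in the fit of the compared groups alone, which has fewer arrays, and Cdc6 for IL-4 in control cells only with normexp and quantile normalization and with median scaling. No called member changed sign.

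Counts of members lower after HDAC3 loss under IL-4 were 2, and 1 with median scaling, the mean over probes, slide as a block and without the 2 arrays with fewest spots well above background; the compared groups alone gave 0 higher and 0 lower, and array weights and normexp with quantile normalization gave 3 lower, Pcna being added. Higher in vehicle were 3, and 5 with array weights. E2f2 lost that call in 12 of 25 settings, and the count fell to 2 wherever no other member was added. For IL-4 in control cells, lower counts were 1, and 0 with normexp and quantile normalization and with median scaling, 2 with trend and robust variance and with the compared groups, and 3 with array weights; higher counts were 1, and 2 with trend and robust variance. For IL-4 in KO cells the lower count was 0, and 1 with trend and robust variance.

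Medians of replication genes for HDAC3 loss under IL-4 were -0.14, but -0.067 with normexp and quantile normalization and -0.0049 over probes well above background everywhere. Medians of mitosis genes turned sign at 0.0409 with array weights in that comparison, at 0.0409 with median scaling and 0.0473 with array weights for IL-4 in KO cells, and at 0.0534 with array weights for the interaction. The cause was not tested.

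Leaving out 1 array gave 1 to 2 higher and 1 to 2 lower for HDAC3 loss under IL-4. HDAC3 loss in vehicle gave 2 to 3 higher. For IL-4, 1 to 2 were lower in control cells and 0 to 1 in KO cells. Medians then ran from -0.17 to -0.0489 (replication, HDAC3 loss under IL-4), -0.0968 to 0.0829 (mitosis, IL-4 in control), -0.0571 to 0.0529 (replication, IL-4 in KO), -0.13 to 0.0068 (mitosis, IL-4 in KO) and -0.21 to -0.0164 (mitosis, interaction). They also turned sign for HDAC3 loss in vehicle (replication -0.0137 to 0.118, mitosis -0.0096 to 0.0998), for mitosis under IL-4 (-0.114 to 0.011), for replication with IL-4 in control cells (-0.0372 to 0.13) and in the interaction (-0.0824 to 0.0153). A group cut to 2 arrays is assumed to vary like the others. The all-gene median moved by under 0.1 with every scaling. Low signal kept 4 members out of the test. Replicate numbers are not shared between groups and pair no arrays; the slides, which several groups share, served as blocks instead.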
